A study of Homo sapiens with 18 samples.

Results

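The 9 genes described here are MTOR, RPTOR, RICTOR, MLST8, AKT1, AKT2, TSC1, TSC2 and RHEB, which encode the mTOR kinase, its partners in both mTOR complexes, the AKT kinases upstream, the TSC1-TSC2 complex and the GTPase between TSC and mTOR. They were chosen by symbol, each matched 1 Ensembl gene, and all 9 of the 63677 genes in the count table were among the 15576 genes tested. The libraries came from NCI-H1299, a human lung cancer cell line at passage 12 to 14, grown in low-glucose medium with serum. RNA-seq was run on 18 libraries in 6 groups of 3. The TBX2, TBX3, TBX4 and TBX5 groups were transiently transfected, each with a plasmid that expresses the T-box transcription factor it is named for. The TBX3 and TBX5 plasmids were pCGN vectors with an HA tag, and those of TBX2 and TBX4 were pORF vectors with a Flag tag. A single EV group stands for both kinds, so vector and tag cannot be told apart from the factor. The EV group received the empty vector, and the Ctl group is labelled as control without a stated treatment. Transient transfection leaves transfected and untransfected cells in the same culture, so each value is an average over both, and fewer cells with a transcript cannot be told apart from less of it per cell. The 9 genes bear on whether the T-box factors alter the RNA of a growth pathway in these cells. The study of these libraries had already listed MTOR and AKT2 among the genes lowered by every one of these factors. It also listed NF2 and LASP1 there, and EIF4B and TUBA1A among the genes changed by every one of them. What is given below for these genes repeats that result on the same libraries and is not independent of it. The study also measured MTOR by qPCR and reported that its qPCR results matched its RNA-seq data.

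mTOR is a protein kinase that works in a pair of complexes. In mTORC1, which holds RPTOR (raptor) and MLST8, it promotes protein synthesis and cell growth and restrains autophagy when nutrients and growth factors are present. In mTORC2, which holds RICTOR and MLST8, it phosphorylates AKT. AKT in turn inactivates the TSC1-TSC2 complex, which otherwise keeps RHEB, the direct activator of mTORC1, in its inactive GDP-bound form. Much of this control is exerted on the proteins, which RNA counts do not measure.

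Each library held 7365221 to 11743179 counts (median 9167758), and 3 counts, taken as the floor of detection, equalled 0.255 to 0.407 CPM, the number of counts scaled to a common library size. The 9 genes had 50 (MLST8) to 2165 (MTOR) counts in a library, so each lay above that floor throughout. A single gene took 29.4% of all counts, from 10.7% in TBX3 replicate c to 53.5% in TBX5 replicate b. Levels below are therefore CPM scaled by TMM, a scaling set by the bulk of the genes. The plasmid genes matched the group names: TBX2 reached 4090 to 4820 CPM in its own libraries, TBX3 17700 to 25400, TBX4 7540 to 8500 and TBX5 129 to 242. The TBX5 plasmid carries the mouse gene, so its reads were counted on the human gene as far as they align there, and its level cannot be set beside the others. One library, labelled 4c-TBX5, has the number shared by the TBX4 libraries and the name of TBX5. It held 7890 CPM of TBX4 and 0.0926 CPM of TBX5, it was grouped with TBX4 by its number, and the TBX4 results are given with and without it. In the 6 controls VIM had 861 to 970 CPM, KRT8 33.3 to 40.9 and KRT18 61.2 to 75.8, while the lung markers NKX2-1 and SFTPC, the leukocyte markers PTPRC, CD3E and CD68, and the fibroblast markers COL1A1, COL1A2, DCN and PDGFRB had at most 0.595 CPM.

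MTOR lies on the minus strand of chromosome 1 (GRCh37, chr1:11166592-11322613). Its promoter is shown because MTOR was called lower in each of the 4 TBX comparisons below. The 250 bases before its annotated start in RefSeq (GRCh38.p14, chr1:11262552-11262801, minus strand, 5′ to 3′, with no base in capitals because no searched motif was found) read as follows.
MTOR: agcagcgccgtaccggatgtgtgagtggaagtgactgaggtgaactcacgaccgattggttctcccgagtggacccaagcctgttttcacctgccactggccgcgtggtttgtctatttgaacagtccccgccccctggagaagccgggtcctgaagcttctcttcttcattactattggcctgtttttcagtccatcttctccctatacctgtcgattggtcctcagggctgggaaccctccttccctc
Promoter entries were found for 8 of the 9 genes (not MLST8), with 11 windows of 250 bases in all, some genes having several starts. They were searched on both strands for AGGTGTGA, the half-site to which T-box factors bind in DNA, and for its first 6 bases, AGGTGT, which every AGGTGTGA contains. AGGTGTGA was in 0 of the 11 windows, against 0.786% of all 35116 windows of this length. AGGTGT was in 1 of them, that of RHEB, against 9.57% of all windows. The match starts 166 bases before the RHEB start and is shown in capitals within 30 bases of RefSeq sequence (GRCh38.p14, chr7:151520044-151520073, minus strand, 5′ to 3′).
RHEB: gcggtagcagcgAGGTGTatttttagctcc
These letters describe the windows, and binding of the T-box factors was not measured here.

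In the 6 control libraries the 9 genes differed in level by about an order of magnitude. Per kilobase of the MANE Select transcript, RHEB (38.6 ± 2.20 CPM per kb, SD, n = 6) and AKT1 (38.2 ± 2.43) were highest, and their libraries overlapped. AKT2 (18.2 ± 0.804) and MTOR (15.2 ± 0.463) followed, with no overlap between them. RICTOR (7.73 ± 0.292) and MLST8 (6.85 ± 0.479) overlapped, as did TSC1 (5.41 ± 0.284) and RPTOR (5.38 ± 0.250), and TSC2 was lowest (4.28 ± 0.106). The order depends on the length used: per kilobase of merged annotated exons, MTOR (9.89 CPM per kb) stood above AKT2. Reads were counted without regard to strand. In the GENCODE annotation, which is not the one used for counting, 0% (AKT2 and RHEB) to 6.05% (AKT1) of the exon bases are shared with an overlapping gene. A read on such bases cannot be assigned to a single gene. RHEB also has 3 numbered pseudogenes, RHEBP1 to RHEBP3, so its counts are uncertain.

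**Figure D1:**
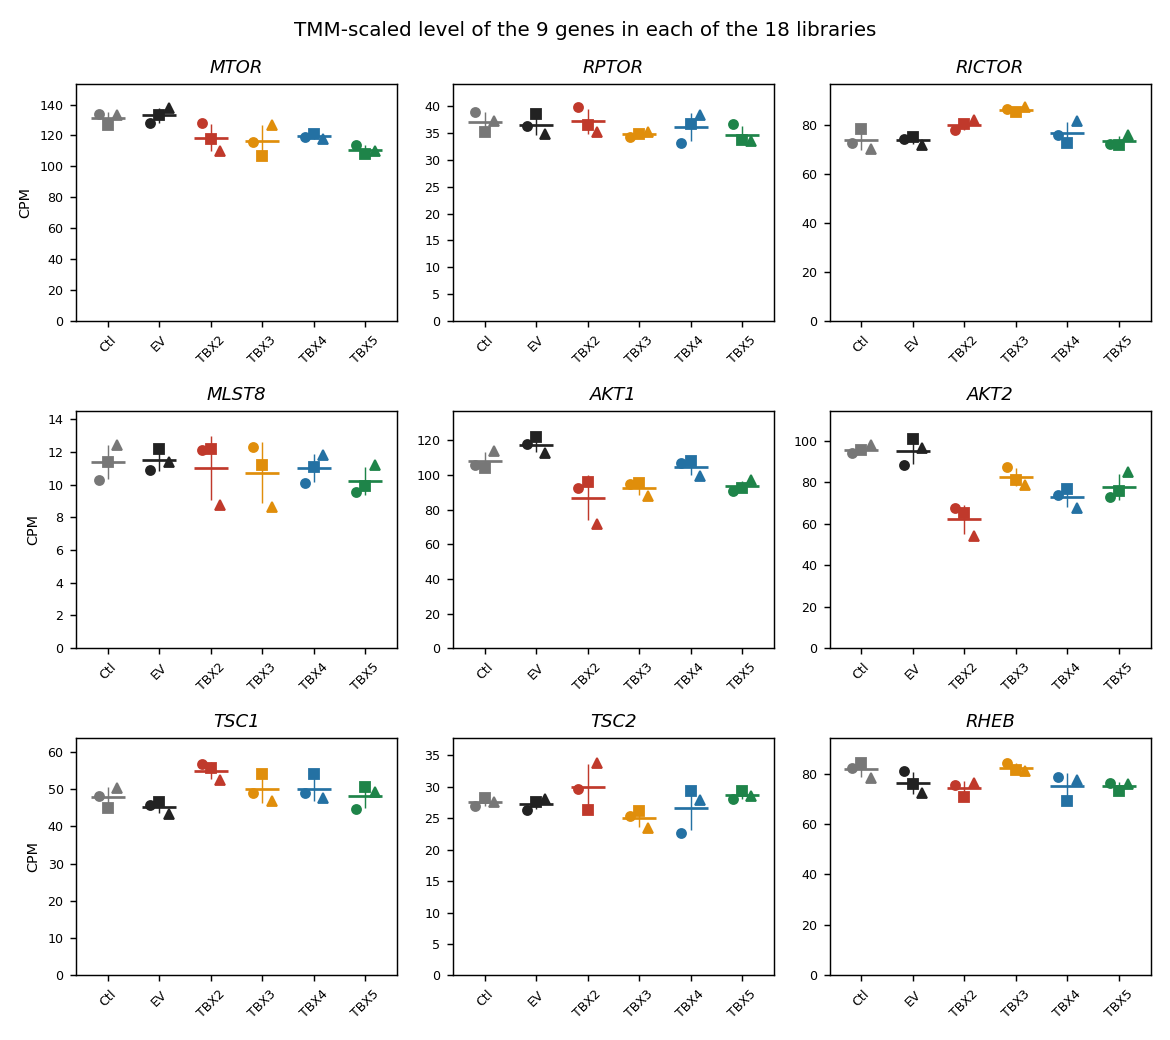
TMM-scaled level (CPM, vertical axis from 0) of the 9 genes in each library, by group on the horizontal axis; circles, squares and triangles are replicates a, b and c, horizontal bars group means and vertical bars ± 1 SD (n = 3). AKT2 lies at 54.2 to 87.3 CPM in the 12 TBX libraries and at 88.3 to 101 CPM in the 6 controls, while in RPTOR and MLST8 every TBX group overlaps the controls.

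The 6 controls were used together, so EV and Ctl were first compared. None of the 9 genes differed between them in edgeR's quasi-likelihood test or in DESeq2, where 0.385% of all tested genes were called by edgeR. In 0 of the 9 were the EV libraries all above or all below Ctl, as they were for 7.68% and 6.84% of tested genes. The log2 differences of the 9 (EV minus Ctl) ran from -0.10 (RHEB) to 0.13 (AKT1). AKT1 was the 1 gene with an unadjusted p under 0.05 in that fit (0.0485, adjusted p = 0.537), at 113 to 122 CPM in EV and 104 to 114 CPM in Ctl. A gene counted as called below when its Benjamini-Hochberg adjusted p over the 15576 genes was under 0.1. The 4 TBX comparisons share the 6 control libraries, so a chance deviation of the controls enters all 4.

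With TBX2, 4 of the 9 genes were called, 1 higher (TSC1) and 3 lower (AKT2, AKT1 and MTOR), where 32.6% of all tested genes were called. With TBX3 it was 4 of 9, RICTOR higher and AKT1, AKT2 and MTOR lower, against 14.9% of all genes. With TBX4 it was 2 of 9, AKT2 and MTOR, both lower, against 13.0%. With TBX5 it was 3 of 9, AKT2, AKT1 and MTOR, all lower, against 12.7%. In the same order, genes called lower made up 15.6%, 6.40%, 6.07% and 6.12% of those tested, and genes called higher 17.0%, 8.47%, 6.97% and 6.55%. AKT2 and MTOR were thus called lower in each of the 4 comparisons and AKT1 in 3, whereas RPTOR, MLST8, TSC2 and RHEB were called in none. The share of all tested genes called in the same direction in all 4 is not given here. The shares above therefore do not show how unusual such a recurrence is, for these genes or for the other pathway genes below. Scaling by library totals instead of TMM moved the median of all genes by 0.01, -0.08, 0.25 and -0.31 (TBX2 to TBX5). Under it 1, 0, 1 and 0 of the 9 genes were called, next to 1053, 35, 2808 and 91 of all 15576 tested genes. The 1 with TBX2 was AKT2, and the 1 with TBX4 was TSC1, higher by 0.38 (adjusted p = 0.0787), while AKT2 with TBX4 was at -0.13 (adjusted p = 0.523). The median log2 change of the 9 genes was -0.03, -0.14, -0.07 and -0.08 (TBX2 to TBX5), next to -0.00, -0.00, -0.01 and -0.00 over all tested genes.

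**Figure D2:**
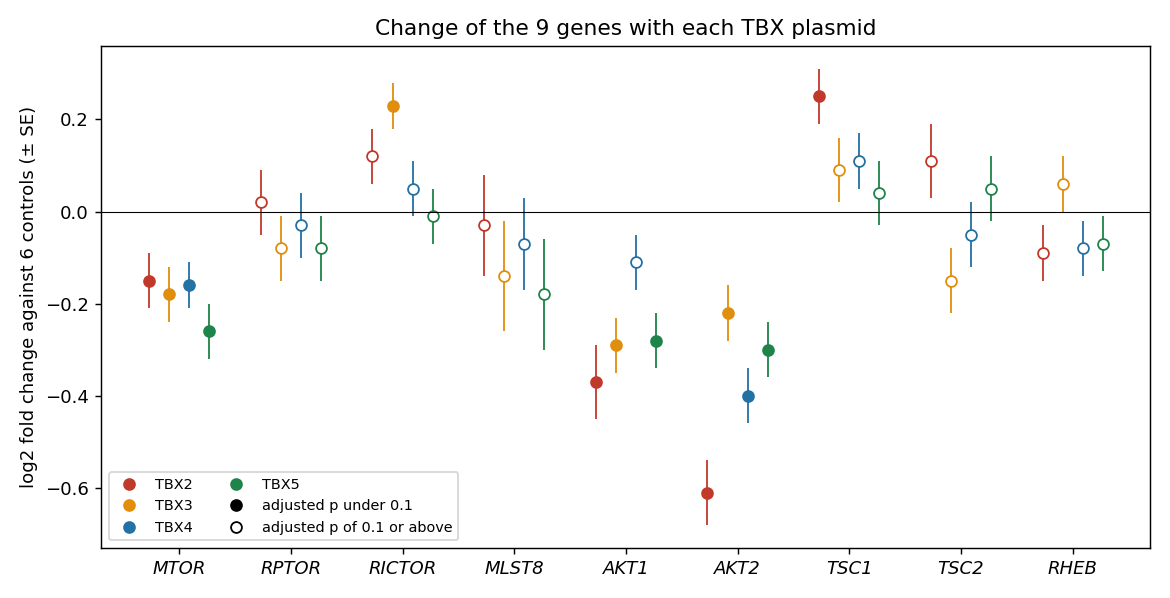
log2 fold change of the 9 genes against the 6 controls (vertical axis, ± SE) for each TBX plasmid; filled points have an adjusted p under 0.1 in edgeR and open points do not. The filled points of MTOR, AKT1 and AKT2 all lie below 0, the lowest being AKT2 with TBX2 at -0.61, and the 2 filled points above 0 are RICTOR with TBX3 (0.23) and TSC1 with TBX2 (0.25).

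AKT2 encodes the AKT isoform best known for insulin-stimulated glucose uptake. It lies on the minus strand of chromosome 19 (GRCh37, chr19:40736224-40791443). In the controls it stood at 93.8, 95.3 and 98.0 CPM (Ctl) and at 88.3, 101 and 96.2 CPM (EV). The TBX2 libraries had 67.3, 65.0 and 54.2 CPM. The TBX3 libraries had 87.3, 81.2 and 78.7 CPM, and the TBX4 libraries 73.8, 76.7 and, in the library labelled 4c-TBX5, 67.6 CPM. The TBX5 libraries had 72.9, 75.6 and 84.7 CPM. Every TBX library was therefore below every control. In single comparisons, all 3 TBX libraries lay below all controls for 11.6%, 6.14%, 5.74% and 6.55% of tested genes (TBX2 to TBX5), and above them for 12.9%, 8.38%, 6.84% and 7.48%. These shares also belong beside the other genes below whose libraries did not overlap the controls. The share of genes with several TBX groups on the same side of the controls is not given. The fall was largest with TBX2 (log2 fold change -0.61, SE 0.07, -34.5%, adjusted p = 7.22e-07). It was -24.0% with TBX4 (-0.40, SE 0.06, adjusted p = 6.53e-05), -18.9% with TBX5 (-0.30, SE 0.06, adjusted p = 0.00472) and -13.8% with TBX3 (-0.22, SE 0.06, adjusted p = 0.0187). Without the library labelled 4c-TBX5 the TBX4 value was -0.34 (adjusted p = 0.00185). The TBX3 call rested on TBX3 replicate c, the lowest of its group, without which the change was -0.18 (adjusted p = 0.104).

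AKT1, the most widely expressed AKT isoform and a promoter of cell survival and growth, lies on the minus strand of chromosome 14 (GRCh37, chr14:105235686-105262088). It stood at 106, 104 and 114 CPM in Ctl and at 118, 122 and 113 CPM in EV. It was at 92.6, 95.9 and 71.9 CPM with TBX2 and at 94.6, 95.6 and 87.9 CPM with TBX3. With TBX5 it was at 90.9, 92.5 and 97.0 CPM. All 9 of these libraries lay below the controls, and TBX2 replicate c was the lowest. With TBX4 it was at 107, 108 and 99.4 CPM, which overlapped the controls. AKT1 fell by 0.37 on the log2 scale with TBX2 (SE 0.08, adjusted p = 0.00105), by 0.29 with TBX3 (SE 0.06, adjusted p = 0.00336) and by 0.28 with TBX5 (SE 0.06, adjusted p = 0.00837). The TBX4 value of -0.11 (SE 0.06, adjusted p = 0.253) did not pass, and it was -0.08 (adjusted p = 0.607) without the library labelled 4c-TBX5. The choice of controls moved 2 calls. Against EV alone TBX4 passed (-0.18, adjusted p = 0.0805), and against Ctl alone TBX5 did not (-0.21, adjusted p = 0.102).

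MTOR stood at 134, 127 and 133 CPM in Ctl and at 128, 133 and 138 CPM in EV. It was at 128, 118 and 110 CPM with TBX2 and at 116, 107 and 127 CPM with TBX3. The TBX4 libraries had 119, 121 and 118 CPM and the TBX5 libraries 114, 108 and 110 CPM. The TBX3, TBX4 and TBX5 libraries lay below every control, TBX3 replicate c by less than the rounding, and TBX2 replicate a lay within the controls. The changes were small: -10.1% with TBX2 (log2 fold change -0.15, SE 0.06, adjusted p = 0.0633), -11.5% with TBX3 (-0.18, SE 0.06, adjusted p = 0.0539), -10.2% with TBX4 (-0.16, SE 0.05, adjusted p = 0.0598, but 0.10 under library totals, where the median of all genes was 0.25) and -16.4% with TBX5 (-0.26, SE 0.06, adjusted p = 0.00525). The TBX5 call kept an adjusted p of at most 0.0449 when any 1 library was left out. The TBX2 call was lost without EV replicate c (adjusted p = 0.103), TBX2 replicate b (0.128) or TBX2 replicate c (0.305, log2 fold change -0.10). The TBX3 call was lost without TBX3 replicate a (adjusted p = 0.148) or b (0.306, log2 fold change -0.12). The TBX4 call was lost without any 1 of its libraries, with adjusted p of 0.176 (a), 0.132 (b) and 0.195 (the library labelled 4c-TBX5).

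RPTOR and RICTOR are the subunits that tell both mTOR complexes apart, RPTOR recruiting the substrates of mTORC1 and RICTOR being required for mTORC2. RPTOR (GRCh37, chr17:78518619-78940171, plus strand) stood at 34.7 to 38.8 CPM in the controls and at 33.2 to 39.8 CPM in the 12 TBX libraries, and its log2 changes ran from -0.08 to 0.02 (adjusted p = 0.519 to 0.864). RICTOR (GRCh37, chr5:38938022-39074504, minus strand) stood at 72.7, 78.2 and 70.2 CPM in Ctl and at 74.3, 74.8 and 71.7 CPM in EV. The TBX3 libraries had 86.2, 85.2 and 87.0 CPM of RICTOR, all above the controls, as were the TBX3 libraries for 8.38% of all tested genes. RICTOR rose by 17.1% with TBX3 (log2 fold change 0.23, SE 0.05, adjusted p = 0.00884), and omitting any 1 library left the adjusted p at 0.0456 or below. With TBX2 it was at 77.9, 80.1 and 81.7 CPM, which overlapped the controls through TBX2 replicate a (0.12, SE 0.06, adjusted p = 0.154). With TBX4 it was at 75.6, 72.4 and 81.6 CPM (0.05, SE 0.06, adjusted p = 0.669) and with TBX5 at 72.2, 71.8 and 75.9 CPM (-0.01, SE 0.06, adjusted p = 0.949). MLST8, the small subunit of both complexes (GRCh37, chr16:2254249-2259454, plus strand), had the fewest counts, 50 to 179 in a library. It stood at 10.3 to 12.4 CPM in the controls and at 8.65 to 12.3 CPM in the TBX libraries, its changes ran from -0.18 to -0.03, and none passed (adjusted p = 0.383 to 0.883). Its SE of 0.12 with TBX5, where the change was -0.18, was larger than that of MTOR (0.06), and a change of the size of that in MTOR might not be detectable in MLST8 at this depth.

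TSC1 and TSC2 together form the complex that holds RHEB inactive, TSC2 carrying the GTPase-activating domain and TSC1 stabilising it. TSC1 (GRCh37, chr9:135766735-135822261, minus strand) stood at 48.2, 44.9 and 50.3 CPM in Ctl and at 45.8, 46.6 and 43.4 CPM in EV. The TBX2 libraries had 56.8, 55.7 and 52.4 CPM, all above the controls, as was the case for 12.9% of tested genes. TSC1 rose by 18.7% with TBX2 (log2 fold change 0.25, SE 0.06, adjusted p = 0.00686), and omitting any 1 library left the adjusted p at 0.0424 or below. Its changes with TBX3, TBX4 and TBX5 were 0.09, 0.11 and 0.04 (adjusted p = 0.414, 0.319 and 0.792), and these libraries overlapped the controls. TSC2 (GRCh37, chr16:2097968-2139492, plus strand) stood at 26.4 to 28.2 CPM in the controls. The TBX3 libraries, with 25.4, 26.1 and 23.5 CPM, lay below them, yet the change of -0.15 (SE 0.07) did not pass (adjusted p = 0.191). With TBX2 the TSC2 libraries had 29.7, 26.4 and 33.8 CPM, with TBX4 22.7, 29.3 and 27.9 CPM, and with TBX5 28.1, 29.4 and 28.5 CPM, with changes of 0.11, -0.05 and 0.05 (adjusted p = 0.330, 0.752 and 0.746). Without TBX2 replicate b, TSC2 with TBX2 was at 0.20 and passed (adjusted p = 0.0969). RHEB (GRCh37, chr7:151163098-151217206, minus strand) stood at 72.2 to 84.4 CPM in the controls and at 69.1 to 84.3 CPM in the TBX libraries. Its log2 changes were -0.09, 0.06, -0.08 and -0.07 with TBX2 to TBX5, and none passed (adjusted p = 0.319 to 0.613).

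A ratio of 2 genes within a library does not depend on the scaling between libraries, so the ratios of counts of AKT2 to AKT1, RPTOR to RICTOR and TSC2 to TSC1 were compared as well, in 12 two-sided exact permutation tests of the log2 ratio. With 3 libraries against 6, the smallest p such a test can give is 0.0119. The AKT2 to AKT1 ratio was 0.889, 0.918 and 0.856 in Ctl and 0.747, 0.823 and 0.849 in EV. Every EV library thus lay below every Ctl library in this ratio, while the tests treat the 6 controls as alike. A test of this ratio against EV alone is not given. With TBX4 it was 0.692, 0.712 and 0.680, below every control (log2 difference -0.28, exact permutation p = 0.0119, adjusted 0.0476). With TBX2 it was 0.727, 0.678 and 0.754, and TBX2 replicate c overlapped the controls (-0.23, exact permutation p = 0.0238, adjusted 0.0714). The log2 ratio differed from the controls by 0.07 with TBX3 (exact permutation p = 0.333, adjusted 0.400) and by -0.03 with TBX5 (exact permutation p = 0.726, adjusted 0.792), so in these a lowering of AKT2 beyond that of AKT1 was not detected. The RPTOR to RICTOR ratio was 0.449 to 0.534 in the controls and 0.398, 0.407 and 0.405 with TBX3 (log2 difference -0.31, exact permutation p = 0.0119, adjusted 0.0476). The TSC2 to TSC1 ratio was 0.548 to 0.646 in the controls and 0.520, 0.482 and 0.502 with TBX3 (-0.24, exact permutation p = 0.0119, adjusted 0.0476). Both TBX3 ratios thus lay below every control. The share of other gene pairs that lie outside the controls was not computed. The ratios use the same counts as the single-gene comparisons above and are not separate evidence. With TBX2, TBX4 and TBX5 the RPTOR to RICTOR ratio differed by -0.10, -0.08 and -0.08 (exact permutation, adjusted 0.365 each), and the TSC2 to TSC1 ratio by -0.12, -0.16 and 0.01 (exact permutation, adjusted 0.365, 0.257 and 0.833). With 1 library fewer the smallest possible p is larger, and calls were lost. That of AKT2 to AKT1 with TBX4 was lost without EV replicate b or c or TBX4 replicate a or b (adjusted 0.107 to 0.143), and with TBX2 without any Ctl library, EV replicate b or c, or TBX2 replicate a or b (adjusted 0.161 to 0.257). That of RPTOR to RICTOR with TBX3 was lost without EV replicate b or c or any TBX3 library (adjusted 0.107 to 0.143), and that of TSC2 to TSC1 with TBX3 without any EV or TBX3 library (adjusted 0.107 to 0.214). The log2 differences of these were then -0.32 to -0.19. The TSC2 to TSC1 ratio passed with TBX2 without its replicate c (-0.25, adjusted 0.0857) and with TBX4 without the library labelled 4c-TBX5 (-0.23, adjusted 0.0857).

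**Figure D3:**
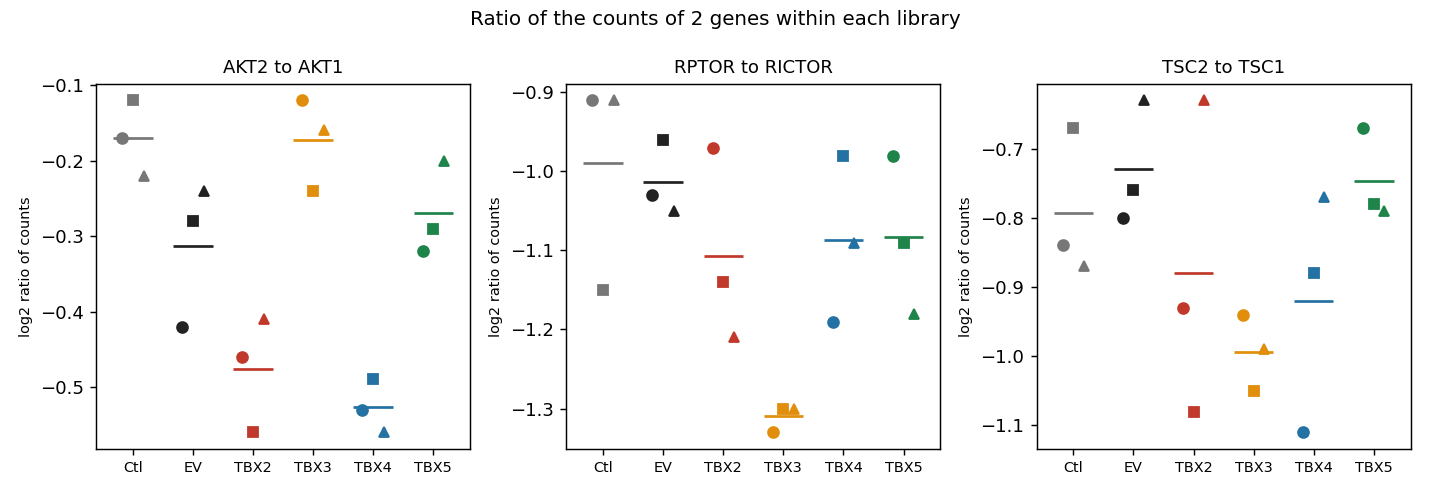
log2 ratio of the counts of AKT2 to AKT1, RPTOR to RICTOR and TSC2 to TSC1 within each library (vertical axes do not start at 0), by group; symbols are replicates a, b and c and bars are group means. TBX4 lies below all controls in AKT2 to AKT1 (linear ratio 0.680 to 0.712 against 0.747 to 0.918), and TBX3 does in RPTOR to RICTOR and in TSC2 to TSC1.

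The TBX groups were then compared pair by pair in a common fit of the 18 libraries, since a call with 1 plasmid and not with another is no test of a difference. Except for TBX2 with TBX4 and TBX3 with TBX5, the groups of a pair also differ in vector and tag. Of the 54 tests (9 genes, 6 pairs of groups) 7 passed. AKT2 was lower with TBX2 than with TBX3 (log2 difference -0.40, SE 0.08, adjusted p = 0.00123), TBX5 (-0.31, SE 0.08, adjusted p = 0.0168) and TBX4 (-0.22, SE 0.08, adjusted p = 0.0862). In these 3 pairs 15.5%, 12.1% and 12.3% of all genes were called. AKT1 was lower with TBX2 than with TBX4 (-0.26, SE 0.08, adjusted p = 0.0351), and TSC2 was higher with TBX2 than with TBX3 (0.26, SE 0.10, adjusted p = 0.0833). RICTOR was higher with TBX3 than with TBX5 (0.23, SE 0.07, adjusted p = 0.0343, with 7.41% of all genes called) and than with TBX4 (0.17, SE 0.06, adjusted p = 0.0994, with 9.97%). Between TBX4 and TBX5 none of the 9 was called in edgeR, where AKT1 alone had an unadjusted p under 0.05 (0.0459), and 0.539% of all genes were. No pair of groups differed in MTOR, and the TSC1 difference between TBX2 and TBX5 did not pass (0.20, SE 0.08, adjusted p = 0.117).

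Only the AKT2 difference between TBX2 and TBX3 kept its call whichever library was omitted. Without TBX2 replicate c, the lowest in AKT1 and AKT2, AKT2 differed by -0.23 from TBX5 (adjusted p = 0.104) and by -0.14 from TBX4 (adjusted p = 0.374), AKT1 by -0.15 from TBX4 (adjusted p = 0.251) and TSC2 by 0.18 from TBX3 (adjusted p = 0.315). The AKT2 difference from TBX5 was also lost without TBX5 replicate c (adjusted p = 0.111). Those of AKT2 and AKT1 from TBX4 were lost without TBX4 replicate a (adjusted p = 0.195 and 0.109) or b (0.277 and 0.124), and that of AKT2 without Ctl replicate b (0.102). The TSC2 difference was lost without TBX2 replicate a (adjusted p = 0.162), TBX3 replicate a (0.129) or TBX3 replicate c (0.288). The RICTOR difference between TBX3 and TBX5 was lost without TBX5 replicate a (adjusted p = 0.101) or b (0.104), and that between TBX3 and TBX4 passed without Ctl replicate c, TBX2 replicate b or c, TBX5 replicate a or the library labelled 4c-TBX5 and in no other case (adjusted p up to 0.324 without TBX4 replicate b).

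The genes whose log2 CPM followed that of MTOR most closely over the 18 libraries were NF2 (Pearson's r = 0.91), SLC5A6 (0.88) and PUS7L (0.87). For AKT2 they were LASP1 (0.96), ITGA3 (0.95) and TUBA1A (0.95). Among the 9 genes themselves, AKT1 and AKT2 were the closest pair (r = 0.78), followed by MTOR and AKT1 (0.64), MTOR and AKT2 (0.58) and MLST8 and AKT1 (0.58). AKT2 and TSC1 (-0.54) and RICTOR and AKT1 (-0.53) were the most opposed. The 18 points share the 6 groups and the scaling of each library, so these values describe the libraries and were not tested. The correlation with the share of the most counted gene, which sets much of that scaling, was -0.42 for MTOR, 0.36 for TSC2 and -0.11 to 0.22 for the other 7, and its part in the results was not tested.

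The pathway around the 9 genes was followed with a list of 88 further genes in 5 roles, of which 81 passed the filter on low counts (PRR5, PIK3R2, IRS2, DDIT4L, CASTOR1, TFEB and GRB10 did not). Of the 81, 12 were called higher and 16 lower with TBX2, 15 and 5 with TBX3, 5 and 7 with TBX4, and 7 and 10 with TBX5, where 17.0% and 15.6%, 8.47% and 6.40%, 6.97% and 6.07%, and 6.55% and 6.12% of all tested genes were. Their median log2 change was -0.06, 0.06, -0.05 and 0.00. Between EV and Ctl, 2 were higher and 1 lower. Of the 7 other subunits and assembly factors of the mTOR complexes, 1 was called, MAPKAP1, a subunit of mTORC2 named here after its values were seen, which was lower with TBX2 (-0.35) and TBX3 (-0.37). Of the 17 genes around PI3K and AKT, 5 were lower and 0 higher with TBX2, and 2 were higher and 1 lower with TBX3. In this role 1 was lower with TBX4 and 2 with TBX5. Of the 12 genes of the TSC complex and energy sensing, 4 were higher and 2 lower with TBX2, 3 and 1 with TBX3, 1 and 0 with TBX4, and 1 and 1 with TBX5. Of the 27 genes of amino acid sensing, 4 were higher and 1 lower with TBX2, 4 and 0 with TBX3, 3 and 1 with TBX4, and 2 and 1 with TBX5. Of the 18 downstream substrates and effectors, 4 were higher and 7 lower with TBX2, 6 and 2 with TBX3, 1 and 5 with TBX4, and 4 and 6 with TBX5.

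**Figure D4:**
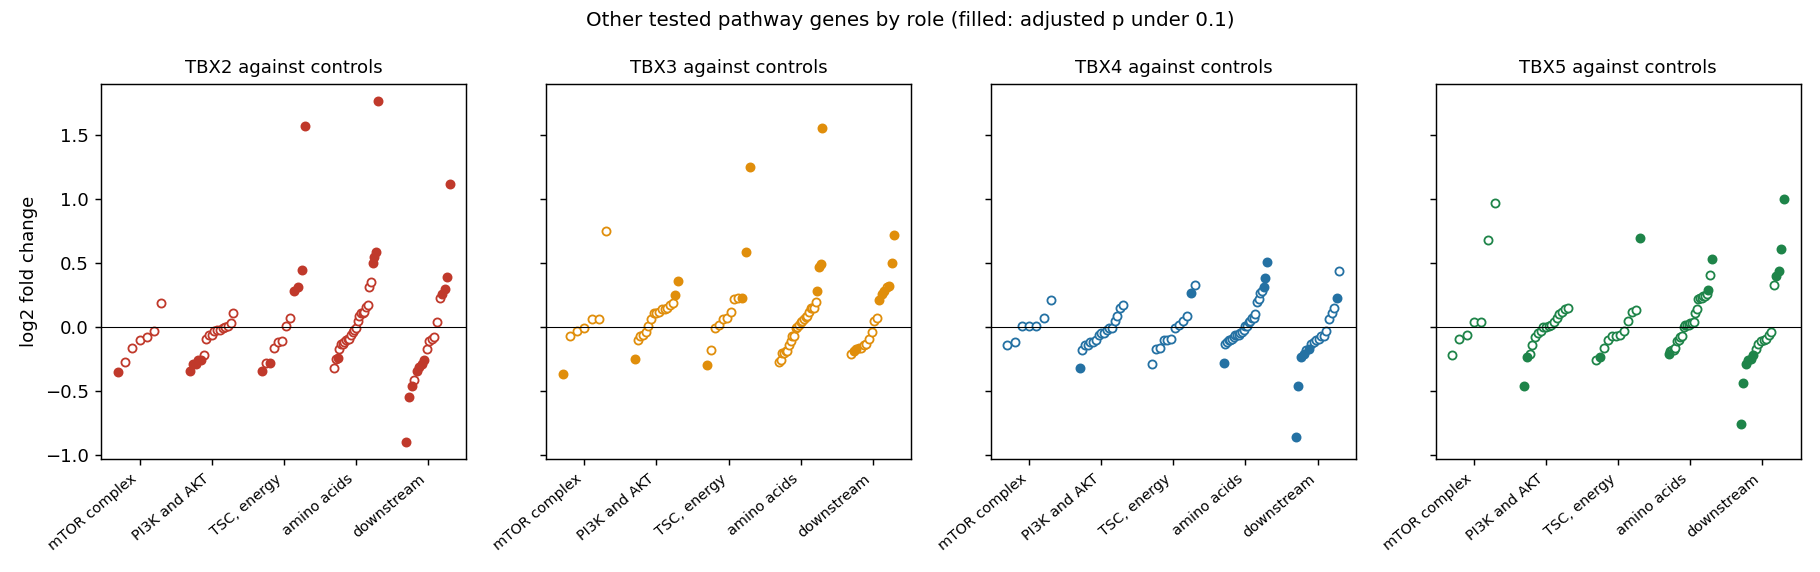
log2 fold change against the 6 controls (vertical axis) of the 81 other tested pathway genes, 1 panel for each TBX plasmid and 1 column of points for each of the 5 roles; filled points have an adjusted p under 0.1. The highest filled points with TBX2 and TBX3 are SESN2 (1.77 and 1.56) and DDIT4 (1.57 and 1.25), and the lowest with TBX2, TBX4 and TBX5 is LPIN1 (-0.90, -0.86 and -0.76).

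SESN2 and DDIT4 both encode stress-induced proteins that restrain mTORC1, SESN2 (sestrin 2) as a leucine sensor and DDIT4 (REDD1) through the TSC complex. SESN2 stood at 5.69, 7.54 and 6.55 CPM in Ctl and at 10.2, 9.45 and 10.5 CPM in EV. It was at 28.0, 31.7 and 25.5 CPM with TBX2 and at 20.8, 30.9 and 23.2 CPM with TBX3. With TBX4 and TBX5 it was at 11.2 to 12.7 CPM. All 12 TBX libraries were above the controls, but EV was itself above Ctl (log2 difference 0.61, adjusted p = 0.0648). SESN2 rose by 1.77 (TBX2, SE 0.13, adjusted p = 9.87e-10), 1.56 (TBX3, SE 0.14, adjusted p = 5.30e-08), 0.51 (TBX4, SE 0.14, adjusted p = 0.0175) and 0.53 (TBX5, SE 0.16, adjusted p = 0.0482) on the log2 scale. Against EV alone the TBX4 and TBX5 values were 0.24 (adjusted p = 0.217) and 0.26 (adjusted p = 0.261), and the TBX5 call was also lost without TBX5 replicate b (0.132) or c (0.153). DDIT4 was low, at 0.784 to 1.61 CPM in the controls, 2.87, 4.33 and 2.92 CPM with TBX2 and 2.23, 3.62 and 2.60 CPM with TBX3. These 6 libraries were above every control, with changes of 1.57 (SE 0.25, adjusted p = 5.65e-05) and 1.25 (SE 0.25, adjusted p = 0.00197). The TBX3 call was lost under library totals (1.18, adjusted p = 0.119), and DESeq2 gave that change (1.26) no adjusted p. With TBX4 (-0.29, adjusted p = 0.658) and TBX5 (0.05, adjusted p = 0.955) DDIT4 overlapped the controls.

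**Figure D5:**
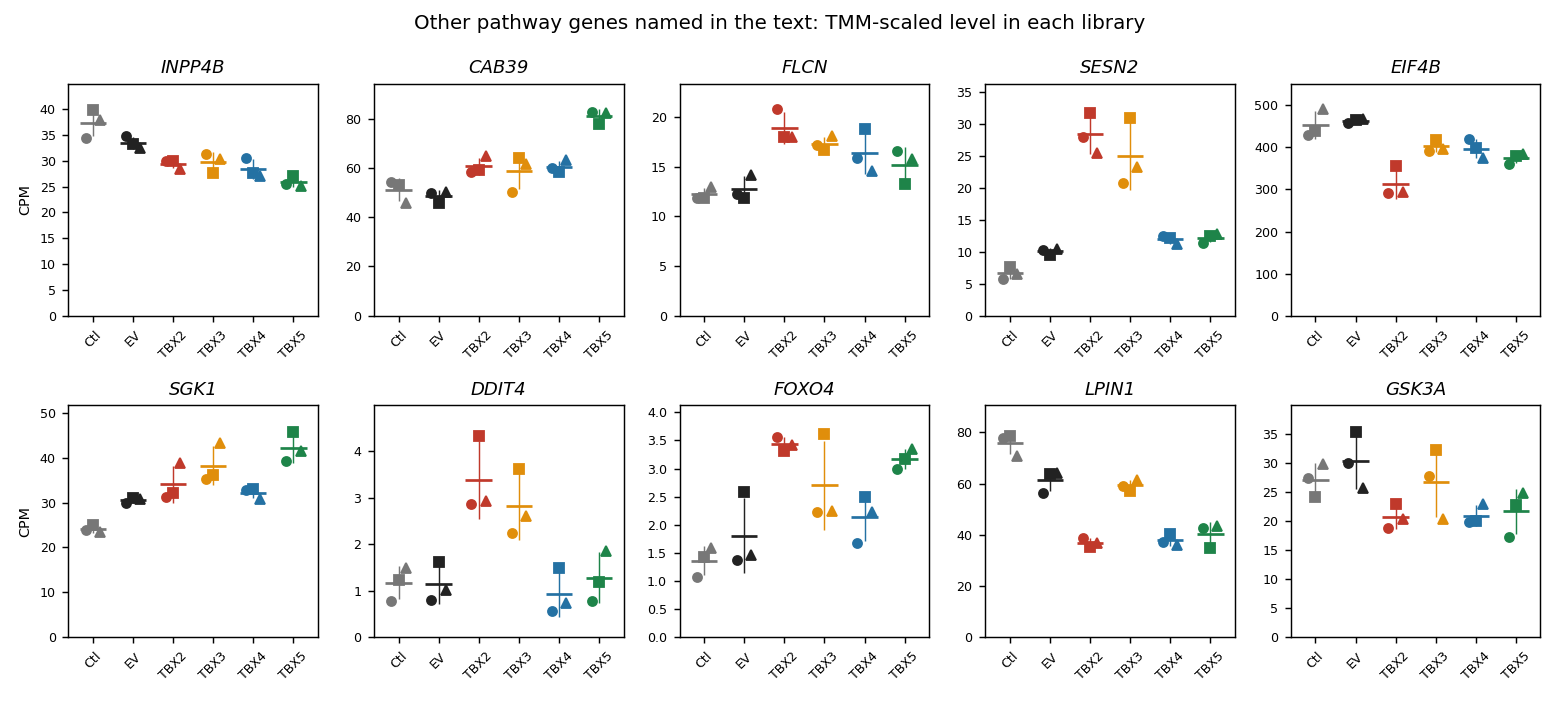
TMM-scaled level (CPM, vertical axes from 0) of 10 other pathway genes in each library, by group on the horizontal axis; symbols are replicates a, b and c, horizontal bars group means and vertical bars ± 1 SD (n = 3). SESN2 rises to 20.8 to 31.7 CPM with TBX2 and TBX3, and EV lies above Ctl in SESN2 and SGK1 and below it in LPIN1.

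LPIN1 (lipin 1), an mTORC1 substrate that acts in lipid synthesis, stood at 70.8 to 78.5 CPM in Ctl and 56.5 to 64.0 CPM in EV, which differed (-0.30, adjusted p = 0.0746). It was at 34.9 to 43.5 CPM in all TBX2, TBX4 and TBX5 libraries, below every control, and fell by 0.90 (SE 0.09, adjusted p = 1.75e-07), 0.86 (SE 0.08, adjusted p = 7.91e-08) and 0.76 (SE 0.10, adjusted p = 2.67e-05) on the log2 scale. With TBX3 it was at 57.3 to 61.5 CPM (-0.21, adjusted p = 0.115) and passed without EV replicate a (adjusted p = 0.0369) or c (0.0753). It was at -0.35 against Ctl alone (adjusted p = 0.00404) and at -0.05 against EV alone, and passed with no filter (adjusted p = 0.0262). SGK1, a kinase activated through mTORC2, was called higher in each comparison (0.30, 0.50, 0.23 and 0.61 with TBX2 to TBX5), with EV at 29.9 to 31.0 CPM again apart from Ctl at 23.5 to 25.1 CPM (0.34, adjusted p = 0.0733). Against EV alone SGK1 was at 0.15 with TBX2 (adjusted p = 0.265) and at 0.07 with TBX4 (adjusted p = 0.668). The TBX4 call of SGK1 was lost without Ctl replicate a, b or c or any TBX4 library (adjusted p = 0.111 to 0.243), and its TBX2 call without TBX2 replicate c (0.151). FOXO4, a transcription factor that AKT keeps out of the nucleus, rose by 1.12 with TBX2 (adjusted p = 0.000880), 0.72 with TBX3 (adjusted p = 0.0711) and 1.00 with TBX5 (adjusted p = 0.0168), from 1.08 to 2.58 CPM in the controls. Its TBX3 call was lost without Ctl replicate a or b, EV replicate a or c, or TBX3 replicate b (adjusted p = 0.107 to 0.321). That call was also lost against EV alone (0.55, adjusted p = 0.270), and DESeq2 gave the TBX3 change (0.74) no adjusted p. GSK3A, a kinase that AKT inhibits, fell by 0.46 with TBX2 (adjusted p = 0.00255), 0.46 with TBX4 (adjusted p = 0.00248) and 0.44 with TBX5 (adjusted p = 0.0285, lost without TBX5 replicate a, at 0.258). Against Ctl alone the TBX5 call of GSK3A was lost as well (-0.36, adjusted p = 0.126).

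EIF4B, a translation initiation factor phosphorylated downstream of mTORC1, and INPP4B, a lipid phosphatase that counters PI3K signalling, were called lower in each of the 4 comparisons. EIF4B stood at 429 to 491 CPM in the controls and 292, 356 and 293 CPM with TBX2, and fell by 0.55 with TBX2 (SE 0.07, adjusted p = 4.87e-06) and by 0.19, 0.21 and 0.29 with TBX3, TBX4 and TBX5 (adjusted p = 0.0404, 0.0189 and 0.00277), though with TBX4 it was 0.05 under library totals. The TBX3 call was lost without TBX3 replicate a (adjusted p = 0.165) and the TBX4 call without the library labelled 4c-TBX5 (-0.17, adjusted p = 0.146). Against Ctl alone the TBX3 call of EIF4B was lost too (-0.18, adjusted p = 0.161). INPP4B stood at 32.5 to 39.8 CPM in the controls and at 25.1 to 31.3 CPM in the TBX libraries, which lay below them, with changes of -0.26, -0.25, -0.32 and -0.46 (adjusted p = 0.0139, 0.0378, 0.00559 and 0.00116), the TBX3 call being lost without TBX3 replicate b (0.162). Against EV alone INPP4B was at -0.18 with TBX2 (adjusted p = 0.136) and at -0.17 with TBX3 (adjusted p = 0.207). CAB39, a scaffold that activates the kinase upstream of AMPK, and FLCN (folliculin), which acts on the Rag GTPases in amino acid sensing, were called higher in each comparison. CAB39 rose most with TBX5, from 46.0 to 54.5 CPM in the controls to 82.8, 77.8 and 82.6 CPM (0.70, SE 0.07, adjusted p = 4.68e-07), next to 0.28, 0.23 and 0.27 with TBX2, TBX3 and TBX4, and its TBX3 call was lost without TBX3 replicate b (0.215) or c (0.218). That TBX3 call was also lost against Ctl alone (0.20, adjusted p = 0.202). FLCN rose from 11.9 to 14.2 CPM in the controls to as much as 20.8 CPM with TBX2 (0.59, SE 0.09, adjusted p = 6.25e-05), and by 0.47, 0.38 and 0.29 with TBX3, TBX4 and TBX5 (adjusted p = 0.00135, 0.0100 and 0.0943), though with TBX5 it was -0.01 under library totals. The TBX5 call of FLCN was lost without Ctl replicate a, b or c, EV replicate a or b, or TBX5 replicate a or c (adjusted p = 0.111 to 0.384), and its TBX4 call without TBX4 replicate b (0.130). The TBX5 call was also lost against EV alone (0.25, adjusted p = 0.264), against Ctl alone (0.33, adjusted p = 0.136) and in DESeq2 (0.29, adjusted p = 0.198).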

How the data were processed

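RNA-seq libraries of NCI-H1299 cells (18) were analysed from the gene counts deposited by the authors, which are raw counts with no normalization. Paired-end reads had been aligned by them to GRCh37 with STAR 2.3.0 and counted per Ensembl gene by featureCounts, whose default ignores strand. No identical libraries and 0 columns without a sample were found. Groups and replicate letters came from the labels.

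A gene was tested if at least 10 libraries held more than 5 counts of it. Each TBX group (n = 3) was compared with the 6 pooled EV and Ctl libraries by the quasi-likelihood test of edgeR 4.0.16 (R 4.3.3) with TMM scaling, Benjamini-Hochberg adjustment over all tested genes and an FDR of 0.1, in place of the DESeq2 used in the study. The SE of a log2 fold change was its size divided by the root of the F statistic. EV was compared with Ctl, and TBX groups with each other in 1 fit. Count ratios were tested by exact permutation, with adjustment over 12 tests. All 9 genes are named, and of the other pathway genes those called in the same direction in each TBX comparison and the 3 largest called changes per comparison. The genes, lists and tests were chosen with earlier results of these data known. Gene positions are from GENCODE on GRCh37. Alternatives were other scalings, DESeq2 1.42.0, other filters, a replicate block, an FDR of 0.05, 1 common fit, EV or Ctl alone, and each library left out. Those for the other pathway genes were added after seeing the data. Nothing states whether the 3 libraries of a group came from separate cultures, so p-values measure the spread between these libraries, and the depth floor covers counting error only. The methods were tested on simulated data. One listed marker gene is not reported here.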

Additional observations from a re-analysis of the deposited data

How the results depend on the processing

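Scaling by library totals, which lets the most counted gene set the level of all others, changed most. It shifted the median log2 change of all genes by 0.25 with TBX4, -0.31 with TBX5, -0.08 with TBX3 and 0.01 with TBX2, and the calls from 1086 higher and 945 lower to 2775 and 33 with TBX4, from 1319 and 997 to 35 and 0 with TBX3, from 1021 and 954 to 37 and 54 with TBX5 and from 2651 and 2428 to 833 and 220 with TBX2. Library totals without that gene gave 867 and 1696 with TBX3, 898 and 1221 with TBX4 and 799 and 1197 with TBX5. Under library totals, 1, 0, 1 and 0 of the 9 genes were called with TBX2, TBX3, TBX4 and TBX5, the 1 with TBX4 being TSC1 (0.38, adjusted p = 0.0787), while AKT2 (-0.13, adjusted p = 0.523) and MTOR lost their TBX4 calls. Of the 81 other pathway genes, 7, 1, 13 and 1 were called. Signs turned there for RHEB with TBX3 (-0.02), for MTOR (0.10), RPTOR (0.23), MLST8 (0.19), AKT1 (0.15), TSC2 (0.21), RHEB (0.19) and EIF4B (0.05) with TBX4, for TSC1 (-0.27), TSC2 (-0.26), FLCN (-0.01) and DDIT4 (-0.26) with TBX5, and for the differences of AKT2 between TBX2 and TBX5 (0.03) and of RICTOR between TBX3 and TBX4 (-0.16). Relative to the median of all genes under that scaling, MTOR and AKT2 lay lower with TBX4 and TBX5. With no filter RPTOR with TBX2 was -0.02. For TBX4, 1 of the 9 genes was called with no filter, with the replicate block, at an FDR of 0.05, in 1 fit of 18 libraries and against Ctl alone, MTOR being lost in each, with adjusted p of 0.155, 0.110, 0.0598, 0.113 and 0.149. Of all tested genes, 2145 of 37355 were called with no filter, and 1691, 1361, 1714 and 1812 of 15576 in the rest, in that order. Against Ctl alone MTOR was also lost with TBX2 (adjusted p = 0.192) and TBX3 (0.165), and against EV alone with TBX2 (0.136). None of the 7 differences between TBX groups passed under library totals (adjusted p = 0.644 to 1.00), where 7 others did, and 4 passed with DESeq2 and 4 at an FDR of 0.05, and the replicate block ended that of RICTOR between TBX3 and TBX4 (0.17, adjusted p = 0.118). The replicate letters did not pair the libraries: the mean correlation of deviations was 0.000430 between libraries of the same letter and -0.000185 between others. With 1 library left out, the number of the 9 genes called was 3 to 4 with TBX2, 3 to 4 with TBX3, 1 to 2 with TBX4 and 3 with TBX5, and 4 to 7 of the 54 tests between TBX groups passed, not all of them among the 7. Of all 15576 tested genes, 4099 to 4911, 1545 to 2261, 1223 to 2249 and 1067 to 1835 were called with TBX2 to TBX5 in these fits. For the tests between TBX groups, the share of all genes called is not given for any alternative. The log2 change then ran from -0.03 to 0.06 for RPTOR and -0.11 to 0.09 for MLST8 with TBX2, from -0.26 to 0.04 for MLST8 and -0.29 to 0.06 for GSK3A with TBX3, from -0.07 to 0.03 for RPTOR and -0.13 to 0.06 for TSC2 with TBX4, and from -0.03 to 0.01 for RICTOR and -0.30 to 0.41 for DDIT4 with TBX5. The log2 ratio differences ran from -0.27 to -0.19 (TBX2) and -0.32 to -0.26 (TBX4) for AKT2 to AKT1, from -0.34 to -0.29 (TBX3) for RPTOR to RICTOR, and from -0.25 to -0.02, -0.26 to -0.21, -0.23 to -0.07 and -0.03 to 0.04 for TSC2 to TSC1 with TBX2 to TBX5, with fewer splits and so larger possible p. The causes were not tested. MLST8, with the fewest counts, was measured least precisely, and DDIT4 and FOXO4 lay closest to the floor among the genes named.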
